A study of Mus musculus with 5 samples.

Results

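Probe sets of the phosphoinositide 3-kinase (PI3K) subunits, the enzyme family that LY294002 inhibits, were compared between optic nerves kept with a low and a high concentration of the compound. Members were chosen by gene name, as 10 genes that encode class I, class II and class III PI3K subunits, and not by their measured values. Of these, 9 were named alone by at least 1 probe set, of 18193 genes so named, which gave 25 probe sets of 45101 on the array. No probe set named *Pik3c2b* alone in the annotation used here, and its level is not analysed here. A further probe set names *Pik3r2* together with *Ifi30* and was kept apart.

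Optic nerves of P35 to P45 C57BL/6 mice, with no transgene named, were kept in organotypic culture for 3 days. The groups were 3 arrays of nerves with a low concentration of LY294002 (L-LY29) and 2 arrays of nerves with a high concentration (H-LY29). The labels give 0.5 µM for L-LY29 and 50 µM for H-LY29, whereas the methods give a higher concentration than the label for L-LY29 in adult nerves, and which one these arrays received was not settled here. Arrays of untreated nerves were not analysed here, so every difference is L-LY29 minus H-LY29. The cut nerve holds glial and vessel cells and axons without their cell bodies, and the sources used here do not say which animals went into which array, so the p-values measure the spread between these arrays only.

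Class I PI3Ks phosphorylate a membrane lipid after growth factor or chemokine receptors are engaged, and the product recruits the kinase AKT, which acts on mTOR, GSK3 and FoxO factors. Each enzyme pairs a p110 catalytic subunit with a regulatory subunit that stabilises it and holds it at receptors. Class II enzymes work without such a partner in endocytosis, and the class III enzyme Vps34 makes the lipid that marks endosomes and forming autophagosomes. In oligodendrocytes the class I route is known for its role in differentiation and myelin growth. LY294002 competes with ATP in the catalytic subunits and also acts on other kinases.

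Values are log2 signals as deposited, so a difference of 1 is a doubling. Each probe set, a group of short probes on the array that reads 1 stretch of a transcript, was tested by limma across 45037 probe sets, and it was called at a Benjamini-Hochberg adjusted p under 0.05. The arrays of the 2 doses stood apart on most probe sets. The median log2 signal of an array lay between 5.33 and 5.35 for L-LY29 and between 5.54 and 5.56 for H-LY29, and arrays correlated at 0.9905 to 0.9952 within a dose and at 0.882 to 0.892 between doses. Poly-A control RNAs, bacterial transcripts of the labelling kit, averaged 9.97 to 10.45 in L-LY29 and 3.17 in H-LY29. These controls separated the doses on every array, so a dose difference cannot be told apart from whatever else in the handling of the arrays went with them. Their highest H-LY29 mean, 4.14, serves below as a mark of low signal, and a difference whose lower mean lies under it is not read as a fold. Markers of myelin and oligodendrocytes were present on all arrays, their summed linear signal spanning 235141 to 240555 (L-LY29) and 142235 to 142555 (H-LY29). Ocular surface epithelium, which the nerve should lack, gave 3968 to 23097 (L-LY29) and 144 to 195 (H-LY29) over 9 probe sets, 6 of them higher and none lower, so it varied several-fold even between L-LY29 arrays.

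The test called 18 of the 25 PI3K probe sets, 7 as higher in L-LY29 and 11 as lower, and left 7 uncalled. The called share of all probe sets was 58.9%, with 28.6% higher and 30.3% lower, against which these 18 are to be read. Values of the doses did not overlap at 22 of the 25, where 72.3% of all probe sets did not overlap. The median difference was −0.35 over the PI3K probe sets and 0.01 over all probe sets. Over all probe sets kept by a filter at the 40th or 60th percentile of mean signal, it was −0.18 and −0.22. Of the 25 PI3K probe sets, 19 and 16 passed these filters, so part of the distance from 0.01 goes with brightness. By gene, all called probe sets of *Pik3ca*, *Pik3cb*, *Pik3r2*, *Pik3r3*, *Pik3c2a* and *Pik3c3* were lower in L-LY29, those of *Pik3cd* and *Pik3cg* were higher, and *Pik3r1* had 2 in each direction. Of 5 PI3K genes with more than 1 probe set, 1 was thus called in both directions, where 26.1% of all genes with at least 2 probe sets were. Under quantile normalization *Pik3r2* turned to 0.16 and did not pass.

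**Figure D1:**
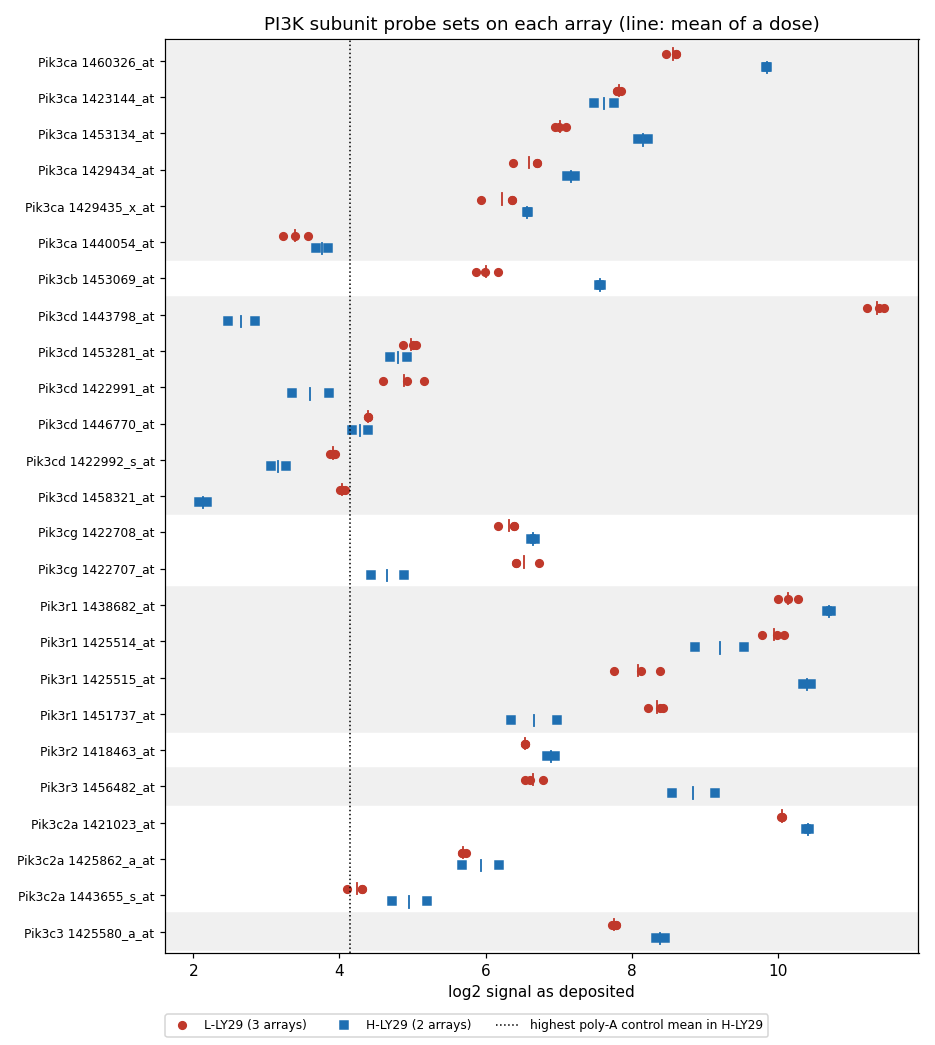
Log2 signal (horizontal axis) of the 25 PI3K subunit probe sets (rows, by gene) on 3 L-LY29 arrays (red circles, upper line of a row) and 2 H-LY29 arrays (blue squares, lower line), with the mean of each dose as a short line and the highest poly-A control mean in H-LY29, 4.14, as a dotted line. Probe set 1443798_at of *Pik3cd* lies above 11 on the L-LY29 arrays and below 3 on the H-LY29 arrays, and the 4 probe sets of *Pik3r1* differ in which dose lies higher.

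*Pik3ca* encodes p110α, the ubiquitous catalytic subunit that serves most growth factor receptors. Its brightest probe set, 1460326_at, had signals of 8.47, 8.61 and 8.60 on the L-LY29 arrays, against 9.85 and 9.86 on the H-LY29 arrays. Both H-LY29 arrays lay above all L-LY29 arrays, a difference of −1.29 (standard error 0.07, 95% interval −1.47 to −1.11, adjusted p = 2.64e-04 by limma). Probe set 1453134_at read 6.999, 7.11 and 6.96 in L-LY29 and 8.09 and 8.22 in H-LY29, and its difference of −1.13 (SE 0.09) was close to that of 1460326_at. Probe set 1429434_at also passed, at −0.58 (SE 0.14, adjusted p = 0.0214). It did not pass after quantile normalization, where it was at −0.04, nor with equal array medians (−0.36, adjusted p = 0.0625). Without H-LY29 replicate 1 or 2 it was at −0.53 and −0.62. *Pik3ca* had 3 probe sets that did not pass. For 1429435_x_at the difference was −0.35 (95% interval −0.79 to 0.09), for the dim 1440054_at −0.37 (−0.69 to −0.04, adjusted p = 0.0591), and for 1423144_at 0.20 (−0.08 to 0.48). The last had signals of 7.81, 7.81 and 7.86 in L-LY29 and 7.76 and 7.48 in H-LY29, the reverse order of the other 5. It passed as higher in L-LY29 with quantile normalization, at 0.71, and with equal array medians, at 0.41. Without H-LY29 replicate 1 it was at 0.34, and without H-LY29 replicate 2 at 0.06.

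*Pik3cb*, for p110β, a catalytic subunit that also answers to G protein-coupled receptors, was read by 1 probe set. It had signals of 6.18, 5.87 and 5.99 in L-LY29 and 7.55 and 7.58 in H-LY29. The doses were separated by more than 1 log2 unit on every array, a difference of −1.55 (SE 0.12, 95% interval −1.86 to −1.24, adjusted p = 5.84e-04).

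*Pik3cd* encodes p110δ, the catalytic subunit best known from leukocytes, and its 6 probe sets split widely. Probe set 1443798_at had signals of 11.46, 11.38 and 11.23 in L-LY29 and 2.47 and 2.84 in H-LY29. It was called higher (adjusted p = 1.26e-04). The fitted difference of 8.70 rests on H-LY29 values under the 4.14 of the poly-A controls, so its exact size is not read, and with a floor at the 30th percentile of each array it was 7.33 (adjusted p = 1.05e-04). The SD between arrays was 0.12 in L-LY29 and 0.26 in H-LY29. For 1422991_at the signals were 4.59, 4.92 and 5.16 in L-LY29 and 3.34 and 3.86 in H-LY29, and it was called higher (adjusted p = 0.00976). Its H-LY29 mean of 3.60 lies under 4.14, so the fitted difference of 1.29 (SE 0.24) is not read as a fold. Without H-LY29 replicate 1 this difference was 1.03. Probe set 1458321_at read 4.03, 4.07 and 4.01 in L-LY29 and 2.08 and 2.19 in H-LY29 (difference 1.90, SE 0.06). For 1422992_s_at the values were 3.92, 3.87 and 3.94 in L-LY29 and 3.27 and 3.06 in H-LY29 (difference 0.75, SE 0.09). Both were called higher, yet both doses lay under the mark of low signal, so these differences are small shifts among dim values. The remaining probe sets did not pass, with overlapping doses: 1453281_at at 0.17 (95% interval −0.13 to 0.47) and 1446770_at at 0.11 (−0.14 to 0.35). Both passed as higher with equal array medians, at 0.38 and 0.32 (adjusted p = 0.0376 and 0.0456), and 1446770_at was 0.21 without H-LY29 replicate 2, 0 without replicate 1 and −0.01 with quantile normalization. Probe set 1446770_at had the identical value of 4.39 on all 3 L-LY29 arrays.

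Over the 5 arrays, the probe sets of other genes that tracked 1443798_at most closely were those of *Khnyn*, *Cnpy2* and *Fam172a* (Pearson r 0.99998 to 0.99999). With 2 groups this measure mostly restates the split between doses, since 980 of 5277 probe sets with an SD of at least 1 exceeded an r of 0.99. Their own differences were 1.99, 5.22 and 2.82. Those of *Khnyn* and *Cnpy2* rest on H-LY29 means of 4.09, under 4.14, and are not read as folds.

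*Pik3cg*, for p110γ, the catalytic subunit that G protein-coupled receptors activate in myeloid cells, had 2 probe sets that moved apart. For 1422707_at the signals were 6.41, 6.74 and 6.42 in L-LY29 and 4.88 and 4.43 in H-LY29, and all L-LY29 arrays lay above both H-LY29 arrays (difference 1.87, SE 0.19, 95% interval 1.36 to 2.38, adjusted p = 0.00139). The other, 1422708_at, read 6.18, 6.40 and 6.40 in L-LY29 and 6.62 and 6.67 in H-LY29. Its difference of −0.32 (95% interval −0.60 to −0.04) did not pass (adjusted p = 0.0536). It passed as lower with a filter on dim probe sets (adjusted p = 0.0491), was −0.11 with equal array medians (adjusted p = 0.427) and turned to 0.16 with quantile normalization (adjusted p = 0.29).

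Microglia express both *Pik3cd* and *Pik3cg*, and their markers moved on the same arrays. Microglia markers (10 genes, 16 probe sets) had 12 probe sets higher, 2 lower and 2 uncalled, with a median difference of 0.98. Their summed linear signal was 20087 to 23425 in L-LY29, against 13013 to 14214 in H-LY29. Of 10 probe sets for 8 leukocyte markers, 3 were higher and 2 lower, and the summed signal was 1108 to 1679 in L-LY29, against 1366 to 1375 in H-LY29. Fewer cells of a type and less RNA per cell cannot be told apart in RNA of whole nerves, and the part of microglia in the *Pik3cd* and *Pik3cg* values was not tested.

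**Figure D2:**
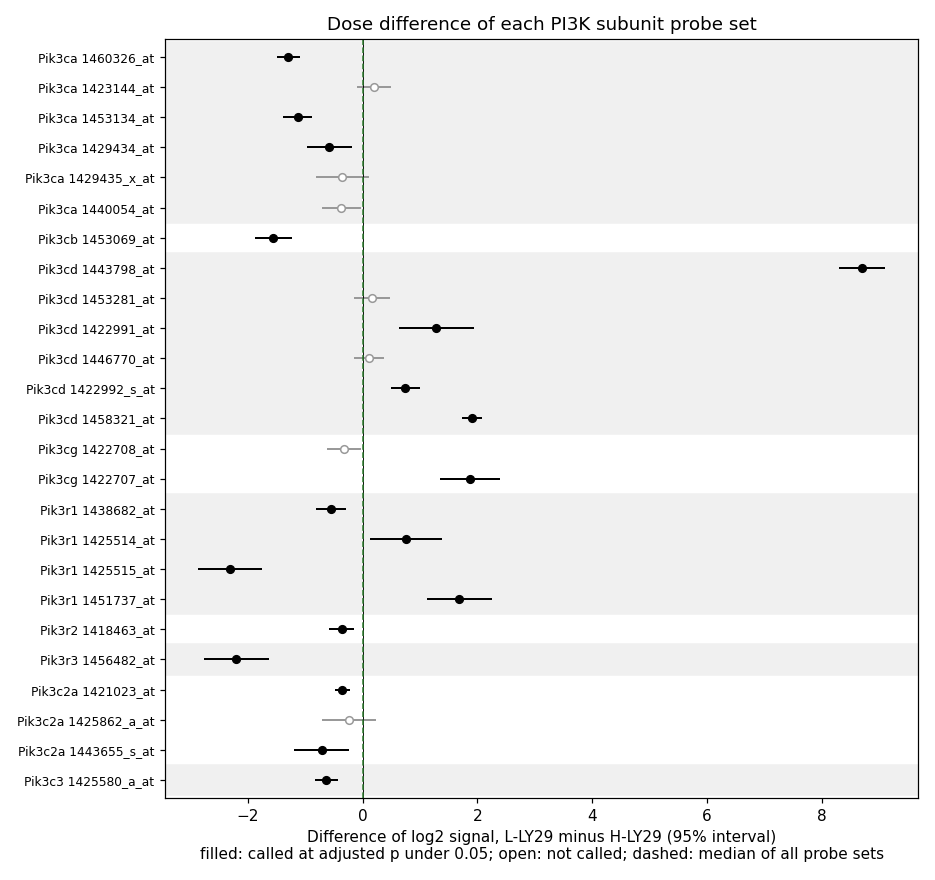
Difference of log2 signal, L-LY29 minus H-LY29 (horizontal axis), of each PI3K subunit probe set (rows, by gene) with its 95% interval. Filled points passed the limma test, open points did not, and the dashed line is the median of all probe sets, 0.01. Called points of *Pik3ca*, *Pik3cb*, *Pik3r2*, *Pik3r3*, *Pik3c2a* and *Pik3c3* lie left of 0, those of *Pik3cd* and *Pik3cg* right of it, and those of *Pik3r1* on both sides.

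*Pik3r1* encodes p85α and, from start sites within the gene, the shorter p55α and p50α, all regulatory subunits of the class I enzymes. Its 4 probe sets were all called, 2 in each direction, although 3 of them (1425514_at, 1425515_at and 1451737_at) share one source record in the annotation. The brightest, 1438682_at, had signals of 10.28, 10.14 and 10.01 in L-LY29 and 10.72 and 10.67 in H-LY29, a difference of −0.56 (SE 0.09, adjusted p = 0.00639). Probe set 1425515_at read 8.39, 8.13 and 7.76 in L-LY29 and 10.45 and 10.34 in H-LY29, and had the most negative difference of all 25, at −2.31 (SE 0.20, 95% interval −2.84 to −1.77, adjusted p = 8.80e-04). In the opposite direction, 1451737_at had 8.39, 8.42 and 8.23 in L-LY29 and 6.97 and 6.35 in H-LY29, a difference of 1.68 (SE 0.21, adjusted p = 0.00248). Probe set 1425514_at had 9.996, 10.08 and 9.79 in L-LY29 and 8.86 and 9.54 in H-LY29, at 0.75 (SE 0.23, adjusted p = 0.0443). That call ended whichever L-LY29 array was left out. Without H-LY29 replicate 1 the difference was 0.41, and without H-LY29 replicate 2 it was 1.09. Without H-LY29 replicate 1 or 2 the difference of 1438682_at was −0.53 and −0.58. The mean of the 4 probe sets differed by −0.11 (SE 0.11, adjusted p = 0.421 over genes), so a single value per gene hides the split.

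RefSeq lists separate starts for the genes whose probe sets differed most, shown here because a probe set can read transcripts from some starts and not others. No source used here tells which start a probe set reads. Windows on GRCm38.p6 run from 100 bases before the start to 50 after it, 5′ to 3′ on the minus strand, with the transcribed 50 bases in capitals. The *Pik3r1* windows lie at chr13:101768168-101768317 and chr13:101692581-101692730, and those of *Pik3cd* at chr4:149698659-149698808, chr4:149676040-149676189 and chr4:149663267-149663416.
Pik3r1 start 1: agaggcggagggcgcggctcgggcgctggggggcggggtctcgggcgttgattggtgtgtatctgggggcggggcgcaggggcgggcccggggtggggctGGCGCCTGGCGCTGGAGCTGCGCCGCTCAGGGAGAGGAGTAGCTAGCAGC
Pik3r1 start 2: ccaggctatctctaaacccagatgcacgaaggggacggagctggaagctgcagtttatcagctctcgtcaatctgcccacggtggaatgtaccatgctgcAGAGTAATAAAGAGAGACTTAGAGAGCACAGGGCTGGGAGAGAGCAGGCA
Pik3cd start 1: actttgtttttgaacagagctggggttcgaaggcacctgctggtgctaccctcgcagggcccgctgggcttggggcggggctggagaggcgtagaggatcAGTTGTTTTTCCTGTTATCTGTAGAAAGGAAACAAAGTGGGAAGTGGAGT
Pik3cd start 2: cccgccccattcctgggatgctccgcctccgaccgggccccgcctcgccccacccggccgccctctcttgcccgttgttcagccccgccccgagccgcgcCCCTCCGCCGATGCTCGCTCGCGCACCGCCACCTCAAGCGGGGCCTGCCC
Pik3cd start 3: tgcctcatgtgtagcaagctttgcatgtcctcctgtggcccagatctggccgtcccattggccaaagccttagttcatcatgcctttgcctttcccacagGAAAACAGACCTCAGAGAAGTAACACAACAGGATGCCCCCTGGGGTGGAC
Start 1 of *Pik3r1* was rich in G and C (75.7% of its 300 base window) and start 2 was not (43.7%), and start 2 of *Pik3cd* held 68% against 51% and 54% at its other starts. FoxO factors, which AKT holds out of the nucleus, bind the letters GTAAACA. Starts of the PI3K genes were searched on both strands, with *Pik3c2b* included and *Pik3c3* left out. These letters occurred at 1 of these 15 starts (6.67%), a start of *Pik3cg*, and at 3.65% of all 32851 starts in windows of the same length. A match is a description and not a binding site.

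*Pik3r2*, for p85β, was read by 1 probe set with the same value, 6.53, on all 3 L-LY29 arrays and 6.84 and 6.95 on the H-LY29 arrays. Its difference of −0.36 (SE 0.08, adjusted p = 0.0139) did not pass with equal array medians (−0.15) and changed sign with quantile normalization, so its direction changes with the scaling of the arrays. It also missed the threshold without L-LY29 replicate 3 (adjusted p = 0.0508). The probe set that names *Ifi30* with *Pik3r2* was higher, at 0.82 (SE 0.15), and is read for neither gene. *Pik3r3*, for p55γ, had signals of 6.79, 6.54 and 6.61 in L-LY29 and 9.14 and 8.55 in H-LY29. This difference of −2.20 (SE 0.21, 95% interval −2.74 to −1.65, adjusted p = 0.00108), 4.59-fold in linear signal, was the largest of a PI3K gene read by 1 probe set. On the same arrays fibroblast markers had a median difference of −2.94, all 10 of their probe sets being lower, and astrocyte markers one of −1.01, with 12 of 27 lower and 1 higher. The summed signal of fibroblast markers was 2334 to 3241 in L-LY29, against 13275 to 17341 in H-LY29. That of astrocyte markers was 12713 to 19272 in L-LY29, against 46800 to 46985 in H-LY29. Their part in the lower *Pik3r3*, *Pik3cb* and *Pik3ca* values was not tested.

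*Pik3c2a*, for the class II enzyme PI3K-C2α of clathrin-mediated endocytosis, was lower in L-LY29 on 2 of 3 probe sets. The bright 1421023_at had signals of 10.05, 10.06 and 10.06 in L-LY29 and 10.42 and 10.39 in H-LY29, a small but separated difference of −0.35 (SE 0.04, adjusted p = 0.00215). With equal array medians it was −0.14 and did not pass (adjusted p = 0.0623). Probe set 1443655_s_at was at −0.71 (SE 0.17, adjusted p = 0.0227), a call that ended without any 1 of the L-LY29 arrays. Without H-LY29 replicate 1 or 2 it was at −0.95 and −0.47. Probe set 1425862_a_at was at −0.24 (95% interval −0.69 to 0.21), and at −0.49 without H-LY29 replicate 2. The same probe set lay on the other side of 0 without H-LY29 replicate 1, at 0.01, and with quantile normalization, at 0.09 (adjusted p = 0.62), so it has no settled direction. *Pik3c3*, for Vps34, the class III enzyme of autophagy and endosome sorting, read 7.79, 7.73 and 7.78 in L-LY29 and 8.34 and 8.45 in H-LY29. Its difference of −0.63 (SE 0.07, 95% interval −0.82 to −0.44, adjusted p = 0.00182) was −0.15 after quantile normalization and did not pass there (adjusted p = 0.177).

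Whether probe sets of one gene shared one dose difference was tested directly. The test used the per-array difference between each probe set and the brightest of its gene, the one with the highest mean over the 5 arrays. A shift of a whole array cannot move this difference. Of 16 such pairs in the PI3K genes, 13 were unequal, where 73.2% of 16752 pairs over 9010 genes were. The median size of the inequality was 1.62 for the PI3K genes and 0.97 for all pairs. Of the 16 PI3K pairs, 5 share 1443798_at of *Pik3cd* as reference. That probe set thus enters the 13 and the PI3K median 5 times. All 5 *Pik3cd* pairs were unequal, the dose difference of each probe set being smaller than that of 1443798_at. It became the reference through its L-LY29 mean of 11.36. Its H-LY29 mean of 2.65 lies under those of 1453281_at (4.81), 1446770_at (4.28), 1422991_at (3.60) and 1422992_s_at (3.16). That choice of reference favoured unequal pairs in this direction, so these 5 pairs are not separate evidence of a split. Their fitted sizes, −8.60 to −6.80, rest on signals under 4.14 and are not read as measured sizes, and with a floor at the 30th percentile they were −7.22 to −6.47 (adjusted p at most 1.86e-04). In *Pik3r1*, 1451737_at differed from 1438682_at by 2.24 (SE 0.18), 1425514_at by 1.31 (SE 0.20) and 1425515_at by −1.75 (SE 0.12). The pair of *Pik3cg* was unequal by 2.19 (SE 0.22). Within *Pik3ca*, 1423144_at stood 1.49 (SE 0.14) above 1460326_at, and 3 others stood 0.71 to 0.94 above it. The pairs that did not pass were 1453134_at of *Pik3ca*, at 0.16 (95% interval −0.14 to 0.46), and both pairs of *Pik3c2a*, at 0.11 (−0.28 to 0.51) and −0.36 (−0.82 to 0.10). Without H-LY29 replicate 1 the *Pik3c2a* pairs were at 0.35 and −0.62, and without H-LY29 replicate 2 at −0.12 and −0.11. With quantile normalization the pair of 1440054_at of *Pik3ca* was no longer unequal, at 0.39. The 3′ minus 5′ difference of the control probe sets, which reads the same transcript at its ends, averaged 0.43 for actin on L-LY29 arrays, against 0.92 on H-LY29 arrays. For *Gapdh* it was −0.13 on L-LY29 arrays, against 0.69 on H-LY29 arrays, and for pyruvate carboxylase 2.14, against 3.76. Its part in the unequal probe sets was not tested.

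**Figure D3:**
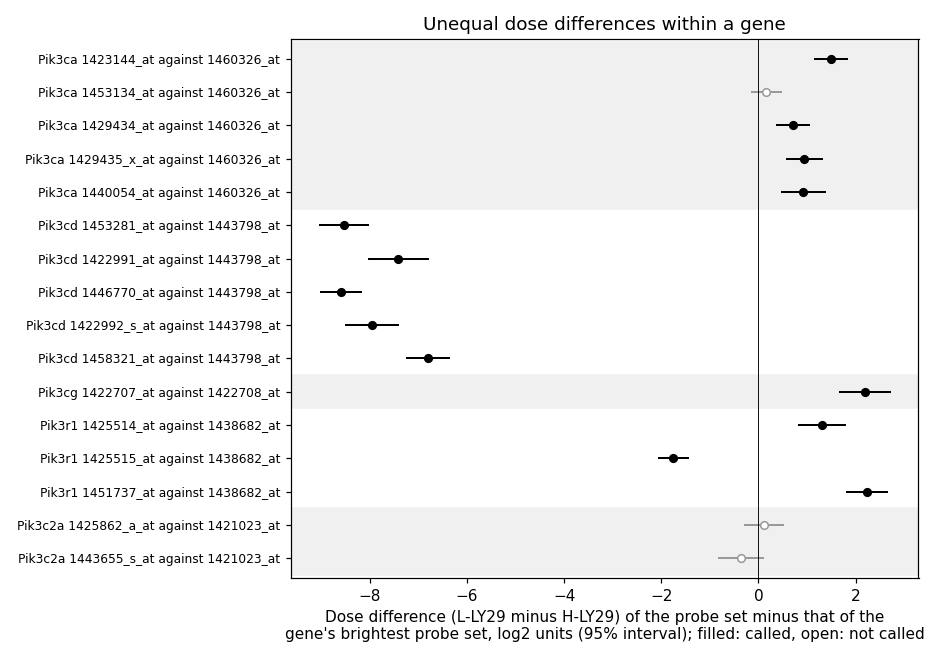
Dose difference (L-LY29 minus H-LY29) of a probe set minus that of the brightest probe set of its gene, in log2 units (horizontal axis), for the 16 pairs within PI3K genes (rows) with 95% intervals. Filled points are unequal at an adjusted p under 0.05 and open points did not pass. All 5 *Pik3cd* pairs lie between −8.60 and −6.80, sizes that rest on H-LY29 signals under 4.14, and the *Pik3r1* pairs lie on both sides of 0.

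Genes around the PI3K subunits were described from 8 lists of 87 genes, of which 83 had a probe set naming them alone. The lists were drawn up with earlier results known. Their 197 probe sets split into 68 higher, 69 lower and 60 uncalled, beside 28.6% higher and 30.3% lower over all probe sets, and their median difference was 0.06. Of all 18193 genes, 28.7% had called probe sets that were higher only, 31.7% lower only and 12.9% both ways, the background for the counts by gene that follow. Among other PI3K subunits, 3 of 6 genes were higher only and 3 lower only. *Pik3r5* and *Pik3r6* encode p101 and p84, the alternative partners of p110γ, and they went opposite ways: *Pik3r6* was higher on 1 of 2 probe sets, at 2.06 (SE 0.30), and *Pik3r5* lower, at −1.32 (SE 0.20). *Pik3r4*, for the Vps15 partner of Vps34, was lower, at −2.06 (SE 0.13, adjusted p = 3.57e-04), in the direction of *Pik3c3*. The B cell adaptor *Pik3ap1* was higher on 1 of 2, at 0.95. In the class III complex, *Becn1* and *Atg14*, both needed for autophagosome formation, were lower, at −0.65 (2 of 5 probe sets) and −0.78, and *Rubcn*, which restrains Vps34, and *Ambra1*, which promotes autophagy, were higher, at 1.14 and 1.07. For *Ambra1* this was 1 of 3 probe sets, and the brightest did not pass, at −0.03. By gene, this list had 4 of 7 higher only, 2 lower only and 1 both ways.

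Among adaptors that bring class I PI3K to receptors, 3 of 8 genes were higher only, 2 lower only and 2 both ways. The docking proteins *Gab2* and *Gab1* were higher, at 2.12 (SE 0.15, on all 3 of its probe sets) and 1.71. *Gab1* rested on 1 of 3 probe sets, and its brighter ones did not pass, at −0.10 and −0.11. The insulin receptor substrate *Irs1* had signals of 6.17 in L-LY29 and 9.47 in H-LY29, a difference of −3.30 (SE 0.33, adjusted p = 0.00131), and *Shc1* was at −1.21. Among phosphatases that remove phosphates from these lipids, *Inpp5e*, which acts at the primary cilium, was lower, at −4.63 (SE 0.11, 2 of 2 probe sets), and so was *Inpp4a* on 1 of 2, at −3.27. *Inpp5k* and *Mtmr1* were higher on 2 of 3 and 1 of 2 probe sets, at 2.66 and 1.70, but the brightest probe set of each did not pass, at 0.10 and −0.17. By gene, 3 of 17 phosphatases were higher only, 6 lower only and 4 both ways.

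Downstream, the AKT and PDK1 list had 2 of 12 genes higher only, 4 lower only and 5 both ways. *Akt2*, an AKT kinase of insulin signalling, was higher on all 3 probe sets, at 1.27 (SE 0.09), and the GSK3 isoform *Gsk3a* at 0.53. The isoform *Gsk3b*, added after its values were seen, was called in both directions. Its called probe sets were lower at −3.44, −2.82 and −2.78 and higher at 0.57. Those that did not pass were at 0.27 and −0.07, so the list gives no common direction for GSK3. The AKT phosphatase *Phlpp1* and the AKT-related kinase *Sgk1* were lower, at −2.02 and −1.19. In the mTOR and TSC list, 5 of 17 genes were higher only, 6 lower only and 4 both ways. *Rheb*, the GTPase that activates mTOR, and the scaffold *Rptor* were higher, at 0.87 and 0.80. *Rptor* was called on 2 of 3 probe sets, both dim, and its brightest did not pass, at −0.05. *Ddit4* and *Sesn2*, stress-induced inhibitors of mTOR complex activity, were lower, at −3.55 (SE 0.16, adjusted p = 2.02e-04) and −2.05. *Akt1* and *Mtor*, chosen after their values were seen, were split among their probe sets. *Akt1* had 3 higher (1.09 to 1.73) and 1 lower (−0.33), and *Mtor* had 1 higher (1.13) and 2 lower (−0.75 and −1.68). The *Akt1* differences of 1.09 and 1.29 rest on H-LY29 means of 4.10 and 3.41, under 4.14. For *Mtor*, −1.68 rests on an L-LY29 mean of 2.99. Those sizes are not read as folds. Brighter probe sets still went both ways, at 1.73 and −0.33 for *Akt1* and 1.13 and −0.75 for *Mtor*.

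Other phosphoinositide kinases had 3 of 11 genes higher only, 2 lower only and 5 both ways. *Pip4k2a* was higher on all 4 probe sets, at 0.89 (SE 0.03) on the brightest called, and *Pip5k1b* on 2 of 3, at 0.70. *Pip4k2b* was lower on 1 of 2 probe sets, at −1.39, and *Pip5k1a* on 3 of 4, at −0.80 on the brightest called. Of the PI3K-related protein kinases, the DNA damage kinase *Atr* was lower on 3 of 3 probe sets, at −0.99, and *Trrap*, a member without kinase activity, was higher, at 0.68. This list of 11 probe sets had the lowest median, −1.30, and the class III partners the highest, 0.50.

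**Figure D4:**
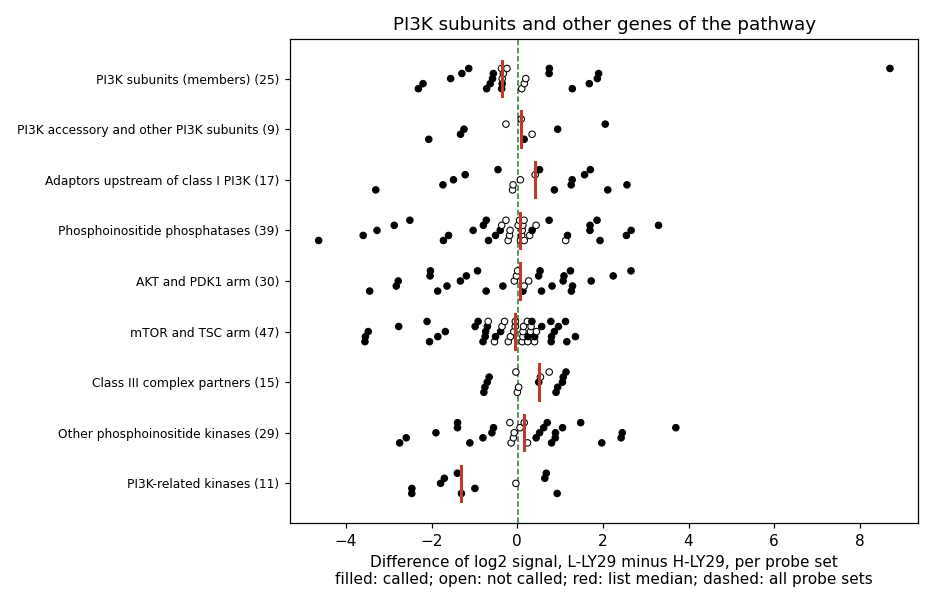
Difference of log2 signal, L-LY29 minus H-LY29 (horizontal axis), of each probe set of the PI3K subunits and of 8 lists of pathway genes (rows, with the number of probe sets in brackets). Filled points passed the limma test and open points did not, red lines are list medians and the dashed line is the median of all probe sets, and every list has called points on both sides of 0.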

How the data were processed

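RNA of cultured optic nerves was hybridised to Affymetrix mouse genome arrays, 3 for L-LY29 and 2 for H-LY29. The authors read the images in GeneChip Operating Software and normalised them with the MAS-5 algorithm in GeneSpring GX, and the deposited values are log2 signals per probe set. Whether that algorithm made these values was not settled: arrays 2 and 3 of L-LY29 held the same value at 19.2% of probe sets and at 6 of the 25 PI3K probe sets, which narrows the spread there. No values were added or rescaled. Probe sets were named from the platform annotation, with symbols updated through gene IDs. The 64 control probe sets were left out of the tests, and 45037 were fitted with no filter on low values with limma (version 3.58.1, R version 4.3.3), using lmFit and then eBayes with its trend option, in two-sided tests. Pairs of probe sets of a gene were fitted the same way. Both tests were tested on simulated data. The rule for named pathway genes took up to 2 per list and direction with the largest difference among genes whose called probe sets all went one way. Members and lists were chosen with earlier results of these data known. The number of arrays limits the precision. Alternatives were filters, floors, scalings, no trend, a replicate block, each array left out, and other rules for probe sets of a gene.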

Additional observations from a re-analysis of the deposited data

How the results depend on the processing

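Of 335 values of PI3K probe sets under the alternatives, 290 kept their sign and side of the threshold, 24 no longer passed, 13 newly passed, 1 was 0 and 7 changed sign. Of these 7, 5 were called neither way (1429435_x_at, 1446770_at, 1422708_at and 1425862_a_at with quantile normalization, and 1425862_a_at without H-LY29 replicate 1). The others were *Pik3r2* at 0.16 after quantile normalization (−0.36 as deposited), and the dim 1440054_at of *Pik3ca* at 0.16 with a floor at the 30th percentile, where all its values were set to the floor of each array. With that floor 1422992_s_at and 1458321_at of *Pik3cd* were likewise at 0.16, all floor values. They are counted among the 290, but their calls there show only the floors. When 1 L-LY29 array was left out, 16 PI3K probe sets were called (6 higher and 10 lower), against 18. Of all probe sets, 49.4% to 50.6% were then called, against 58.9%. The unequal pairs stayed at 13, where 67.4% to 67.8% of all pairs were unequal, against 73.2%. The genes called on their brightest probe set were 7 to 8 of 9, with no share over all genes given here. Leaving out an H-LY29 array leaves 1 array of that dose, so no spread of H-LY29 enters such a fit. Only effect sizes are given for those fits, although the 335 values above include them. With filters at the 40th and 60th percentile, 4 and 3 probe sets were higher, against 7, and 8 and 6 pairs unequal, against 13, since fewer were tested (19 and 16 probe sets, 10 and 7 pairs). Of all probe sets kept by these filters, 71.8% and 76.7% were called, and 78.5% and 80.9% of their pairs were unequal. Taking every pair of probe sets of a gene gave 31 unequal of 40, with no share over all genes given here. Replicate numbers are shared by the doses, and the deviations of same-numbered arrays correlated at 0.02 and 0.03. With 2 H-LY29 arrays their deviations mirror each other, so these values are not separate checks. Whether same-numbered arrays share animals or handling was not settled. With a replicate block 13 PI3K probe sets were called, 6 higher and 7 lower against 11 lower. That fit called 44.5% of all probe sets, against 58.9%. Equal array medians moved the share of called probe sets that were higher to 63.4%, against 48.6% as deposited (40.2% with the filter at the 40th percentile, 39.4% at the 60th, 61.7% with the floor at the 30th), and the median of all probe sets to 0.23, and the PI3K counts to 10 higher and 8 lower. The called share of all probe sets was then 71.1%. Signals near or under 4.14 limit what *Pik3cd* can show in H-LY29.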
